A study of Mus musculus with 16 samples.

Results

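Cholesterol reaches the intestinal epithelium by synthesis from acetyl-CoA and by uptake from the lumen, and it leaves again by esterification into lipoproteins or by export. The 30 genes described here were chosen by name, from the 24421 genes counted in each library, to cover that traffic. They comprise 7 enzymes of the mevalonate segment (Acat2 to Fdps), 11 enzymes from squalene to cholesterol (Fdft1 to Dhcr7), 5 genes of sterol sensing and transcription, 4 of uptake, transfer and esterification, and 3 of efflux. All 30 were present in the count files, and all 30 passed the filter on low counts.

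The synthesis enzymes are largely controlled as a set. The membrane-bound transcription factor SREBP-2, encoded by Srebf2, is held in the endoplasmic reticulum by Scap together with the Insig proteins when sterols are plentiful, and is released to switch on the enzymes when sterols run low. Oxysterols act in the opposite sense through the nuclear receptor LXR (Nr1h3), which raises the exporters Abca1, Abcg5 and Abcg8. In enterocytes Npc1l1 is the apical carrier for dietary and biliary cholesterol, and Soat2 makes the cholesteryl esters that are packed into chylomicrons.

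Epithelial cells were released with EDTA and mechanical force from a piece of jejunum and of ileum (2 cm by the labels, a shorter length by the study's methods) of untreated wild-type C57BL6/J mice, and their RNA was sequenced. There were 4 mice at P6 (postnatal day 6, suckling) and 4 at P36 (after weaning), with 2 females and 2 males at each age. Each mouse gave both regions, so the 16 libraries form 4 groups of 4. Libraries are numbered 1 to 4 within a group, and at 1 age the same number in jejunum and ileum is the same mouse. The comparisons ask how the regions differ at each age and how each region differs between the ages. Total counts lay between 12159237 and 25947276 per library. Levels are given in CPM, the library's counts scaled to a common total with the factors of edgeR, in the order of libraries 1 to 4. A difference is called where the adjusted p of edgeR's quasi-likelihood test, corrected over all 13429 genes tested by Benjamini and Hochberg, lies below 0.05, and a log2 change is the log2 fold change of that fit, jejunum over ileum or P36 over P6, with its standard error (SE) after the ± sign.

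Several libraries stood apart. In P6 ileum library 4 many GC-rich genes were low: 7 of the 30 genes lay more than 1 log2 unit below the mean of the other 3 libraries. All 7 had a GC content, in the longest annotated transcript, between 51.0% and 59.1%. Of the 30 genes 13 lay at or above 51.0%, so not every gene in that range was low by this measure. Across genes the deviation of this library from its group mean fell with GC content (Spearman's rho -0.754, with no p because genes are not replicates). The mean includes library 4, so the values of 0.417 to 0.595 in the other 3 are not independent of it. P6 ileum library 2 held smooth muscle RNA, with Myh11 at 80.5 CPM against at most 0.736 CPM in the other 15 libraries. The P36 ileum libraries differed among themselves in the enterocyte fatty acid binding protein Fabp2, at 7270, 1576, 471 and 1725 CPM. Of the epithelial markers, Epcam lay between 1137 and 2230 CPM in every library, while Krt20 ranged from 32.5 CPM in a P6 ileum library to 2959 CPM in a P36 ileum library, and Krt8 stood at 256 CPM in P6 ileum library 4. The epithelial list (6 genes) summed to 4610 to 6098 CPM in the P6 ileum and 8472 to 10640 in the P6 jejunum. Its genes did not vary alike: over the P6 libraries Fabp2 ran from 239 to 6002 CPM, while Cdh1 lay between 792 and 868 CPM. The smooth muscle, fibroblast and endothelium list (9 genes) summed to 18.2 to 397 CPM in the P6 ileum against 6.70 to 15.9 in the P6 jejunum, 4.53 to 13.9 in the P36 ileum and 7.36 to 34.4 in the P36 jejunum. Where leaving out 1 of these libraries changed a call, the result names the library or counts the fits without 1 library that kept the call. The part of these differences between libraries in the results was not tested. In bulk RNA, fewer cells of a type and less RNA per cell cannot be told apart.

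**Figure D1:**
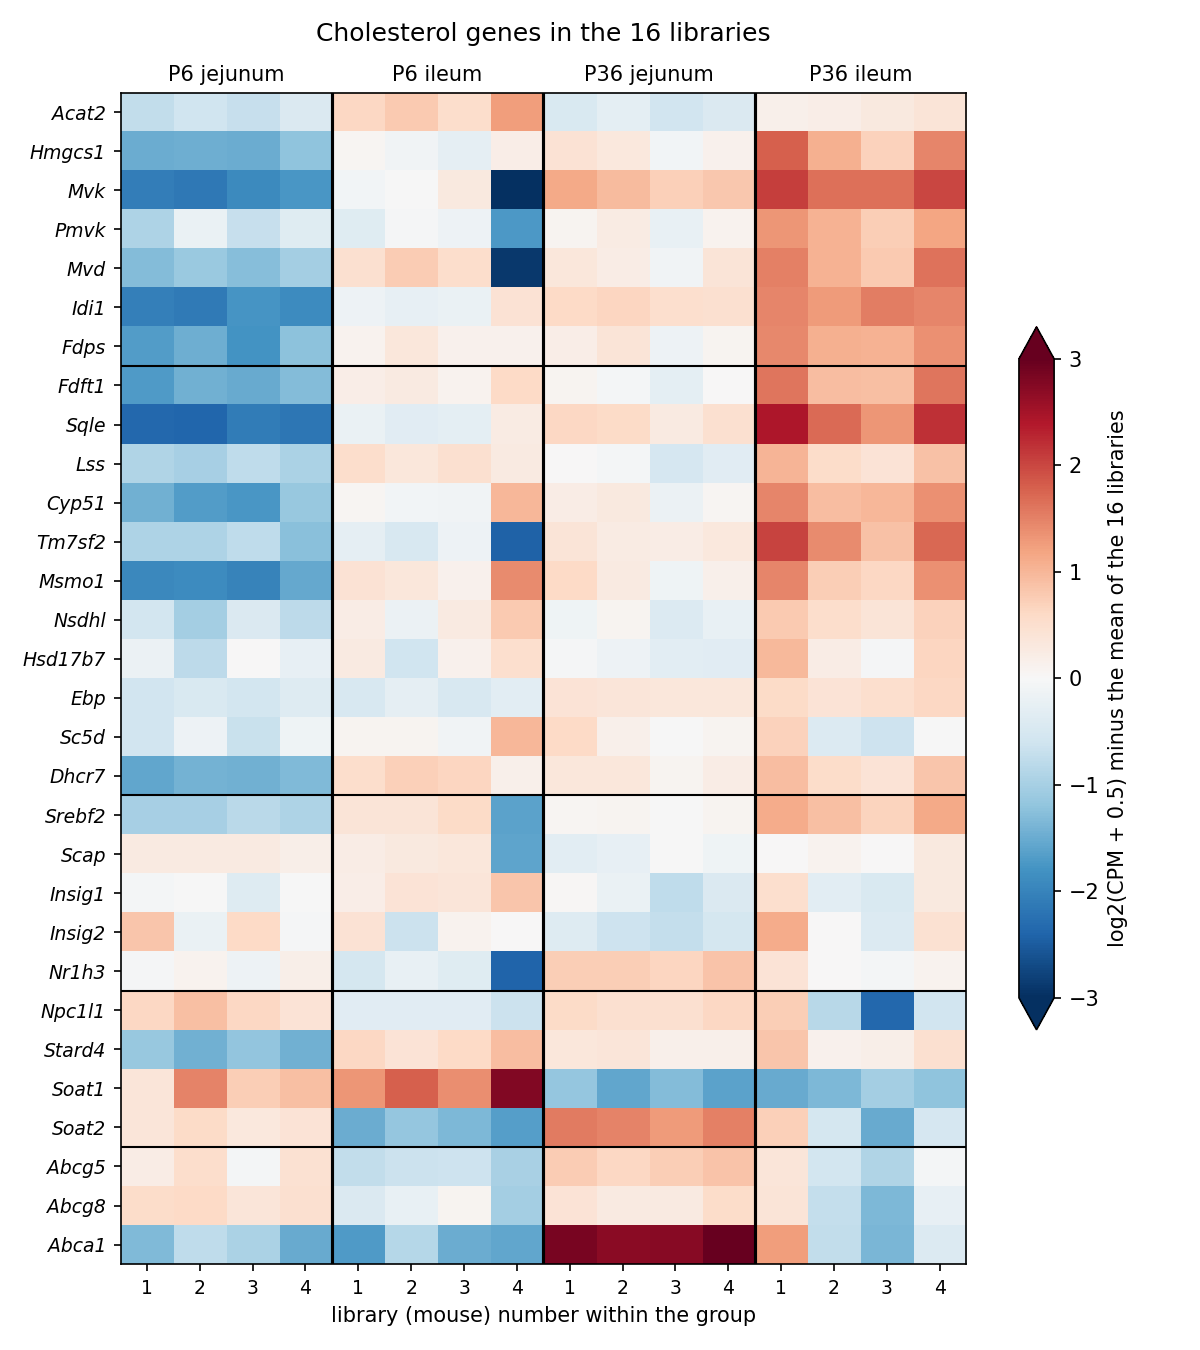
Heat map of the 30 genes (rows, grouped by role) in the 16 libraries (columns, numbered within each group); the colour is log2(CPM + 0.5) minus the mean over the 16 libraries, from blue (low) to red (high). Most synthesis enzymes are blue in the P6 jejunum and reddest in the P36 ileum (Acat2 is reddest in the P6 ileum, where library 4 is dark blue for Mvk and Mvd), with Mvk at 2.79 and 45.9 CPM on average in these groups, and Abca1 stands out in the P36 jejunum at 121 CPM.

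The synthesis enzymes were higher in the ileum than in the jejunum at both ages. At P6 all 18 enzymes had the higher fitted mean in the ileum and 13 of them were called, and at P36 13 were again called higher in the ileum. Over all 30 genes, 16 were called higher in the P6 ileum and 3 higher in the P6 jejunum, where 14.8% and 11.1% of all tested genes were called in those directions. At P36, 14 were called higher in the ileum and 3 in the jejunum, against 7.8% and 8.3% of all genes. The median log2 fold change of the 18 enzymes, jejunum over ileum, was -1.45 at P6 and -0.95 at P36, against -0.05 and -0.04 over all tested genes. With a further minimum of 2 on the absolute log2 fold change, 3 of the 30 genes remained at P6 (6.5% of all genes) and 1 at P36 (3.6%). Those at P6 were Idi1, Sqle and Msmo1, and the gene at P36 was Abca1. For each of the 3 at P6, library 4 was the highest of the P6 ileum, and without that library Mvk passed this minimum. Without P6 ileum libraries 2 and 4, 14 enzymes were called higher in the ileum at P6 and 16 at P36. Without P36 ileum libraries 1 and 3 these counts were 13 and 9. Summed over the 18 enzymes, the level was 539 ± 43.0 CPM in the P6 jejunum, 1381 ± 231 in the P6 ileum, 1308 ± 159 in the P36 jejunum, and 2488 ± 592 (SD, n = 4) in the ileum at that age.

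**Figure D2:**
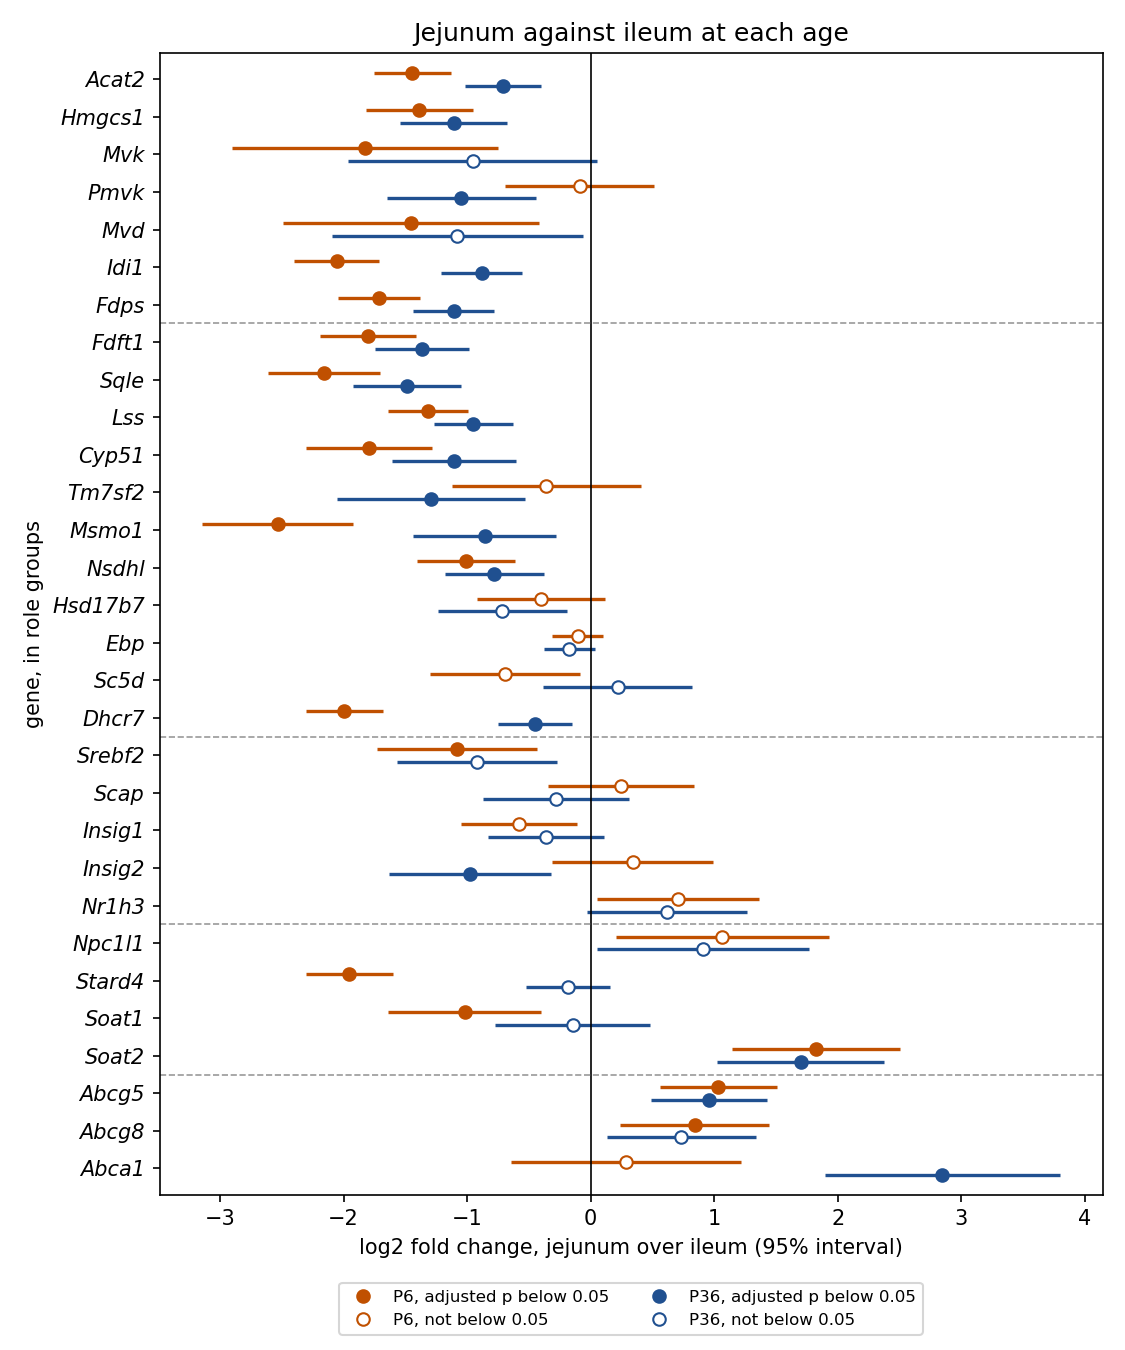
Log2 fold change of jejunum over ileum for each gene at P6 (orange) and P36 (blue), with 95% intervals; filled points have an adjusted p below 0.05, dashed lines part the role groups, and points left of 0 are higher in the ileum. Msmo1 is farthest left at P6 (-2.53), and Abca1 is farthest right at P36 (2.85).

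Compared per kilobase of exon, the order of the genes differed between the regions. In the P6 jejunum the highest levels were those of the handling genes Npc1l1 (297 ± 44.1 CPM per kb, SD, n = 4), Abcg5 (126 ± 22.2), Soat2 (94.1 ± 7.20) and Abcg8 (78.8 ± 5.84). The same 4 led in the P36 jejunum. In the P6 ileum Npc1l1 (142 ± 14.0) was followed by Msmo1 (88.6 ± 40.9), the sterol carrier Stard4 (86.2 ± 12.8) and Fdps (71.0 ± 5.62). Msmo1 stood at 74.5, 70.1 and 60.5 CPM per kb in P6 ileum libraries 1 to 3 and at 149 in library 4, so its place above Stard4 rests on library 4. In the P36 ileum Hmgcs1 (150.2 ± 48.8), Fdps (149 ± 21.6), Npc1l1 (147 ± 119.9) and Msmo1 (119 ± 35.0) came first, and the first 3 did not differ beyond their spread. At the other end, Abca1 held the lowest place of the 30 in both P6 groups and in the P36 ileum, and Soat1 in the P36 jejunum.

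The promoters show what these genes share in sequence. RefSeq windows (GRCm38.p6, which is mm10) were given for 25 of the 30 genes and were searched on both strands, over the 250 bases before the start, for the NF-Y box CCAAT, the Sp1 box GGGCGG and the sterol regulatory element TCACNCCAC. NF-Y and Sp1 are general factors that work beside SREBP-2 on sterol genes. Counting any window of a gene, the NF-Y box was present for 14 of the 15 enzymes with a window (all but Acat2), where 37.5% of all genes have it. For Dhcr7 it lay only in window 3, before a further start, and not before the first start. The Sp1 box was present for 14 of 15 (all but Pmvk), against 35.4% of all genes. Neither box was confined to the enzymes: of the 25 genes with a window, 20 had the NF-Y box and 19 the Sp1 box. Outside the enzymes the NF-Y box was found for Abcg8, Insig1, Insig2, Npc1l1, Soat1 and Srebf2, and the Sp1 box for Abca1, Insig1, Insig2, Scap and Srebf2. The sterol regulatory element in this spelling was found for Hmgcs1 alone, and in 1.22% of all genes. These matches describe letters and not binding. The stretches before the starts of Hmgcs1 (chr13:119690101-119690350, plus strand), Mvk (chr5:114444061-114444268, plus) and Mvd (chr8:122443423-122443672, minus) are shown because they lie clear of annotated exons and carry several boxes. Abca1 (chr4:53159896-53160145, minus), without an NF-Y box, is shown for contrast. Each runs 5′ to 3′ and ends at the base before the start, and capitals mark the matches on either strand.
Hmgcs1: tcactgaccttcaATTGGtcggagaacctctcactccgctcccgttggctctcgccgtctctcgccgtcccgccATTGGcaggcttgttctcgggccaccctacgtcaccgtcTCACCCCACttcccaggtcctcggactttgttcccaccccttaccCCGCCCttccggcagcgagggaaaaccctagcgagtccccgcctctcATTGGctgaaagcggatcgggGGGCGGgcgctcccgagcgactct
Mvk: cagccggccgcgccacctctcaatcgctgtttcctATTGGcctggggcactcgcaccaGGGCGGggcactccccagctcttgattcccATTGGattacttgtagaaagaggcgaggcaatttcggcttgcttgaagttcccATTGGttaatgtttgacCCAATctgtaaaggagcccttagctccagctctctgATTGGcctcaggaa
Mvd: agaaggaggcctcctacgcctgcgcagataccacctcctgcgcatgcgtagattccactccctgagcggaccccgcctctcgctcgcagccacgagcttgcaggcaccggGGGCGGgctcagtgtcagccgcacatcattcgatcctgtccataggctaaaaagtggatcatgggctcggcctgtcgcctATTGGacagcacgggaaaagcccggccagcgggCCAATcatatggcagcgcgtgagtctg
Abca1: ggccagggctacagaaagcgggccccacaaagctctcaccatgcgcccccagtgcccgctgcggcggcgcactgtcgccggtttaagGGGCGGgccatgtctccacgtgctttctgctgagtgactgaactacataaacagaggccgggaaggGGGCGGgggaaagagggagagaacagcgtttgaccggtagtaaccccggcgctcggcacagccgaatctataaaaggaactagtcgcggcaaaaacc
In the Hmgcs1 stretch the sterol regulatory element spans bases -137 to -129 from the start, between NF-Y boxes at -176 to -172 and -45 to -41.

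In the mevalonate segment all 7 genes had the higher mean in the ileum at both ages, and 6 were called at P6 and 5 at P36. Acat2, which joins acetyl-CoA units in the cytosol, measured 34.3, 37.9, 35.5 and 42.0 CPM in the P6 jejunum against 88.1, 98.4, 83.4 and 137 in the P6 ileum, so the groups lay apart. It was 2.72-fold higher in the ileum (log2 change -1.44 ± 0.15, adjusted p = 3.56e-06). Its P36 values were 41.4, 46.6, 38.3 and 42.3 CPM in the jejunum and 64.2, 65.7, 70.4 and 75.4 in the ileum, again with no overlap (log2 change -0.71 ± 0.14, adjusted p = 0.0032). Hmgcs1, which makes HMG-CoA, measured 76.4, 78.5, 76.9 and 93.9 CPM in the P6 jejunum against 225, 201, 178 and 247 in the P6 ileum, every ileal library being above every jejunal one. The ileum was 2.61-fold higher (log2 change -1.39 ± 0.20, adjusted p = 0.000133). At P36 both regions stood higher, at 290.5, 268, 204 and 236 CPM in the jejunum and 750.0, 455, 348 and 597 in the ileum, and the ileum kept the higher values (log2 change -1.11 ± 0.20, adjusted p = 0.00137).

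Idi1, which isomerises isopentenyl diphosphate, was together with Mvk the least abundant enzyme per kilobase in the P6 jejunum (1.61 ± 0.199 and 1.61 ± 0.244 CPM per kb, SD, n = 4, apart by less than their spread), and measured 4.23, 4.06, 5.30 and 4.84 CPM, against 17.3, 16.2, 16.8 and 26.3 in the P6 ileum. The groups did not overlap, and the ileum was 4.16-fold higher (log2 change -2.06 ± 0.16, adjusted p = 2.73e-07). At P36 it measured 29.5, 30.5, 27.3 and 27.1 CPM in the jejunum and 53.6, 47.3, 56.4 and 54.0 in the ileum, which again did not overlap (log2 change -0.88 ± 0.15, adjusted p = 0.000889). Fdps, the farnesyl diphosphate synthase that feeds both sterols and other isoprenoids, measured 28.5, 33.1, 26.1 and 38.9 CPM in the P6 jejunum against 98.4, 116, 101 and 99.5 in the P6 ileum. All ileal values lay above the jejunal ones (log2 change -1.71 ± 0.16, adjusted p = 1.22e-06). At P36 the values were 105, 119.8, 83.0 and 96.8 CPM in the jejunum and 251, 194, 189 and 239 in the ileum, also apart (log2 change -1.11 ± 0.15, adjusted p = 0.000127).

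For the other genes of the segment P6 ileum library 4 mattered. Mvk, mevalonate kinase, measured 11.7, 12.2, 15.1 and 0.785 CPM in the P6 ileum, the last value from library 4, against 2.53, 2.41, 2.89 and 3.35 in the P6 jejunum. The ileum was called higher (log2 change -1.83 ± 0.51, adjusted p = 0.0145), and without library 4 the difference was larger (log2 change -2.21, adjusted p = 1.95e-07). Mvd, mevalonate diphosphate decarboxylase, measured 30.1, 36.6, 31.1 and 2.45 CPM in the P6 ileum and 9.15 ± 0.890 (SD, n = 4) in the P6 jejunum (log2 change -1.45 ± 0.49, adjusted p = 0.0386; without library 4, log2 change -1.83, adjusted p = 3.7e-06). With the mouse as a block neither gene was called at P6 (adjusted p = 0.102 for Mvk and 0.186 for Mvd), and the call of Mvd held in 8 of the 16 fits that left out 1 library each (adjusted p 3.7e-06 to 0.0984 over them). At P36 neither was called with library 4 in the fit (adjusted p = 0.197 and 0.147), although every ileal library was above every jejunal one. Since all libraries share 1 estimate of the spread, both were called at P36 without it (adjusted p = 0.000168 and 0.000285). Pmvk, phosphomevalonate kinase, did not pass at P6 (log2 change -0.09 ± 0.28, adjusted p = 0.852) and was 2.06-fold higher in the ileum at P36 (log2 change -1.05 ± 0.28, adjusted p = 0.0192), a call that was lost without P36 jejunum library 1 or 3 (adjusted p up to 0.0666).

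In the squalene and sterol segment, 7 of 11 genes were called higher in the ileum at P6 and 8 at P36. Fdft1, squalene synthase, measured 21.8, 26.0, 24.9 and 29.0 CPM in the P6 jejunum against 82.5, 87.2, 76.8 and 108 in the P6 ileum. The groups lay apart (log2 change -1.80 ± 0.18, adjusted p = 3.56e-06). The P36 libraries held 76.3, 68.6, 58.6 and 72.4 CPM in the jejunum and 220.3, 137, 135 and 218 in the ileum, with libraries 1 and 4 the highest of the ileum and no overlap (log2 change -1.36 ± 0.18, adjusted p = 8.51e-05). Sqle, squalene epoxidase and a rate-limiting step of the pathway, measured 12.3, 12.1, 14.7 and 14.1 CPM in the P6 jejunum against 56.0, 51.2, 52.4 and 77.6 in the P6 ileum. Every ileal library was higher, by 4.46-fold on the fitted means (log2 change -2.16 ± 0.21, adjusted p = 2.53e-06). At P36 Sqle measured 99.3, 97.0, 78.6 and 90.2 CPM in the jejunum and 348, 213, 164 and 299 in the ileum, again apart (log2 change -1.49 ± 0.21, adjusted p = 0.000127).

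Lss, which closes the sterol rings, measured 24.4, 23.1, 27.3 and 23.9 CPM in the P6 jejunum against 66.4, 58.7, 64.7 and 55.9 in the P6 ileum, with no overlap (log2 change -1.31 ± 0.15, adjusted p = 1.3e-05). At P36 the values were 46.8, 44.3, 32.7 and 36.7 CPM in the jejunum and 94.9, 67.7, 61.9 and 85.3 in the ileum, also apart (log2 change -0.95 ± 0.15, adjusted p = 0.000405). Cyp51, the lanosterol demethylase, measured 37.3, 31.5, 30.3 and 46.1 CPM in the P6 jejunum against 106, 96.5, 95.3 and 205 in the P6 ileum. Library 4 was far above the other ileal libraries, and the groups did not overlap with or without it (log2 change -1.79 ± 0.24, adjusted p = 5.53e-05; without library 4, log2 change -1.45, adjusted p = 1.26e-05). At P36 it measured 119, 125, 90.5 and 108 CPM in the jejunum and 284, 196, 206 and 268 in the ileum (log2 change -1.11 ± 0.24, adjusted p = 0.00432).

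Msmo1, the C4 methyl sterol oxidase, had the largest regional fold change of the enzymes at P6 with all libraries in the fit. Without P6 ileum library 4 that of Mvk was larger. It measured 25.9, 26.8, 24.7 and 34.3 CPM in the P6 jejunum against 136, 128, 110.3 and 272 in the P6 ileum, with library 4 the highest. The ileum was 5.78-fold higher (log2 change -2.53 ± 0.29, adjusted p = 1.12e-05; without library 4, log2 change -2.15, adjusted p = 3.32e-06). Its P36 values were 152, 122, 91.6 and 113 CPM in the jejunum and 281, 168, 155 and 261 in the ileum. The difference was smaller (log2 change -0.86 ± 0.27, adjusted p = 0.0429) and was called in 6 of the 16 fits that left out 1 library each (adjusted p 0.00474 to 0.132 over them). Dhcr7, the last step of 1 branch of the pathway, measured 20.2, 22.0, 21.6 and 23.6 CPM in the P6 jejunum against 86.8, 99.3, 94.8 and 67.3 in the P6 ileum, and no ileal library came near a jejunal one (3.98-fold; log2 change -1.99 ± 0.15, adjusted p = 1.34e-07). At P36 it measured 75.9, 75.7, 63.9 and 69.9 CPM in the jejunum and 114, 88.8, 79.8 and 107 in the ileum, which lay apart by less. This difference was called (log2 change -0.45 ± 0.14, adjusted p = 0.04), but in only 4 of the 16 fits without 1 library (adjusted p 0.00653 to 0.145 over them), and not with the mouse as a block (adjusted p = 0.0563).

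Of the other genes of this segment, Nsdhl, a C4 decarboxylase, was higher in the ileum at P6 (log2 change -1.01 ± 0.19, adjusted p = 0.000958) and at P36 (log2 change -0.78 ± 0.19, adjusted p = 0.00955). Tm7sf2, a sterol C14 reductase, did not pass at P6 (adjusted p = 0.495), with P6 ileum library 4 at 3.19 CPM against 13.7 to 17.3 in the other 3. Without that library it passed (log2 change -0.68, adjusted p = 0.0211). At P36 it was higher in the ileum (log2 change -1.29 ± 0.36, adjusted p = 0.0215), in 10 of the 16 fits without 1 library (adjusted p 0.000163 to 0.0599 over them). Its exons overlap those of Vps51 on the same strand, so its counts are uncertain there. Hsd17b7, a sterol C3 ketoreductase, Ebp, a sterol isomerase, and Sc5d, a sterol C5 desaturase, did not pass in either region contrast. Ebp had 95% intervals of -0.31 to 0.10 at P6 and -0.38 to 0.03 at P36 on the log2 scale. With the mouse as a block Sc5d passed at P6 (log2 change -0.65, adjusted p = 0.0215) and Hsd17b7 at P36 (log2 change -0.67, adjusted p = 0.0229). Sc5d also passed at P6 without P36 ileum library 1 (adjusted p = 0.0427). Hsd17b7 also passed at P36 without P6 ileum library 2 (adjusted p = 0.03), P6 ileum library 4 (adjusted p = 0.0301) or P36 ileum library 3 (adjusted p = 0.0316). Within mice, 14 of the 18 enzymes were higher in the ileum in all 4 mice at P6, and 17 in all 4 at P36, the exception at P36 being Sc5d. The exceptions at P6, Mvk, Pmvk, Mvd and Tm7sf2, were higher in the jejunum in mouse 4 alone, the mouse of P6 ileum library 4. The share of all tested genes with 1 direction in all 4 mice was not counted, so these counts are a description.

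Among the genes of sterol sensing, Srebf2 measured 64.1, 63.4, 72.3 and 67.2 CPM in the P6 jejunum against 166, 166, 191 and 41.5 in the P6 ileum. Ileal libraries 1 to 3 were all above the jejunum and library 4 was below it. The ileum was called higher (log2 change -1.08 ± 0.31, adjusted p = 0.0161), without library 4 by more (log2 change -1.38, adjusted p = 3.24e-07), and with the mouse as a block it was not called (adjusted p = 0.0659). At P36 Srebf2 measured 132, 135, 127 and 136 CPM in the jejunum and 278, 239, 205 and 280.3 in the ileum. These groups lay apart in all 4 mice, yet the test missed the threshold (log2 change -0.92 ± 0.30, adjusted p = 0.0512), and it passed without P6 ileum library 4 (adjusted p = 1.36e-05) or library 3 of that group (adjusted p = 0.0493). Scap, the escort of SREBP-2, was not called at either age (95% interval -0.35 to 0.84 at P6 and -0.87 to 0.31 at P36), but passed at P36 without P6 ileum library 4 (log2 change -0.28, adjusted p = 0.0226). After a correction for GC content, added after seeing the data, Scap was called at both ages.

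Insig1 and Insig2 both retain the Scap complex. Insig1, itself a target of SREBP-2, was not called at P6 (log2 change -0.58 ± 0.22, adjusted p = 0.0639) and was called with the mouse as a block (adjusted p = 0.0242), and without P36 ileum library 1 (adjusted p = 0.0457) or library 3 (adjusted p = 0.0469). Insig2 was not called at P6 (log2 change 0.34 ± 0.31, adjusted p = 0.443). The P36 libraries held 43.6, 36.6, 34.3 and 39.2 CPM in the jejunum and 125, 57.2, 42.8 and 78.0 in the ileum. The ileum was called higher (log2 change -0.98 ± 0.31, adjusted p = 0.0422), although P36 ileum library 3 lay within the jejunal range, and the call held in 7 of the 16 fits without 1 library (adjusted p 0.0177 to 0.133 over them). Nr1h3 went the other way, with a higher mean in the jejunum at both ages, and was not called at P6 (log2 change 0.71 ± 0.31, adjusted p = 0.104) or P36 (log2 change 0.62 ± 0.31, adjusted p = 0.197). Its P6 ileum library 4 stood at 7.70 CPM against 29.7 to 36.4 in the other 3, and without it Nr1h3 passed at both ages (log2 change 0.40, adjusted p = 0.0191 at P6; log2 change 0.62, adjusted p = 0.000897 at P36).

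The genes that take up and esterify sterol showed no common direction. Npc1l1, the most abundant of the 30 per kilobase in 3 of the 4 groups, measured 1326, 1632, 1334 and 1145 CPM in the P6 jejunum against 681, 684, 680.1 and 554 in the P6 ileum. The jejunum was higher in all 4 mice, but the test missed the threshold (log2 change 1.06 ± 0.41, adjusted p = 0.0649), and passed without P36 ileum library 1 (adjusted p = 0.00851) or library 3 of that group (adjusted p = 0.00783). The P36 ileum libraries were spread widely, at 1450, 485, 170.0 and 585 CPM against 1292, 1216, 1212 and 1338 in the P36 jejunum. The ileal library highest for Npc1l1 was also highest for Fabp2, and the lowest was lowest for Fabp2. The same held for Soat2 and Abca1 in the P36 ileum. The regional differences of Abcg5 and Abcg8 at P36 were smallest in mouse 1 and largest in mouse 3. The part of this relation in the results was not tested. The P36 difference of Npc1l1 was not called (log2 change 0.91 ± 0.40, adjusted p = 0.147), but it was with the mouse as a block (adjusted p = 0.0454) and without P36 ileum library 1 (log2 change 1.61, adjusted p = 0.00161).

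**Figure D3:**
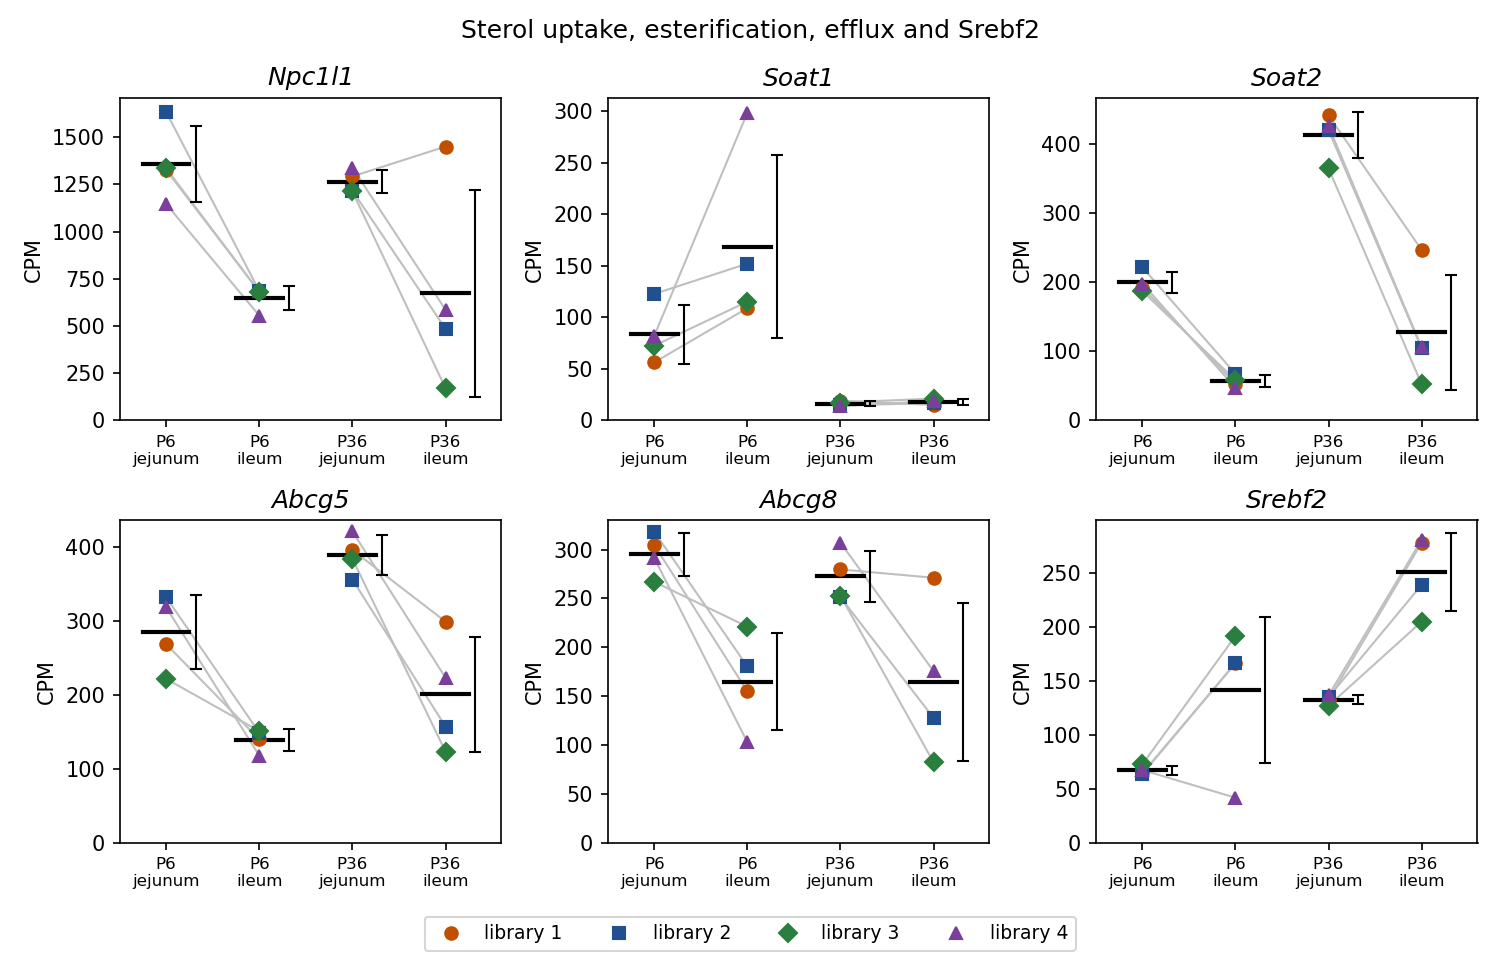
CPM in each library for Npc1l1, Soat1, Soat2, Abcg5, Abcg8 and Srebf2, with grey lines joining the regions of a mouse, bars for the group mean and whiskers for 1 SD (n = 4). Soat1 drops from 169 CPM in the P6 ileum to 17.8 CPM at P36, whereas Soat2 is highest in the P36 jejunum at 414 CPM.

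Soat2, the acyltransferase of enterocytes, was higher in the jejunum. It measured 192, 222, 187 and 198 CPM in the P6 jejunum against 53.2, 67.2, 58.4 and 47.2 in the P6 ileum, without overlap (3.54-fold; log2 change 1.82 ± 0.32, adjusted p = 0.000562). At P36 it measured 442, 421, 365 and 426 CPM in the jejunum and 247, 104, 52.3 and 106 in the ileum, where library 1 stood above the rest and still below every jejunal library (log2 change 1.70 ± 0.32, adjusted p = 0.00158; without that library, log2 change 2.24, adjusted p = 5.81e-06). Soat1, the acyltransferase of most other cells, macrophages among them, measured 56.2, 123, 72.4 and 82.0 CPM in the P6 jejunum against 109, 152, 115 and 299 in the P6 ileum. The ileum was called higher (log2 change -1.02 ± 0.29, adjusted p = 0.0175), though jejunal library 2 exceeded ileal libraries 1 and 3, and the call was lost without P6 jejunum library 1 or 3 (adjusted p up to 0.0613) and without P6 ileum libraries 2 and 4 together (adjusted p = 0.166). At P36 Soat1 was low in both regions and was not called (95% interval -0.77 to 0.48). Per kilobase, the level of Soat2 relative to that of Soat1 was 5.76 ± 1.50 in the P6 jejunum, 0.897 ± 0.366 in the P6 ileum, 58.7 ± 10.5 in the P36 jejunum, and 17.5 ± 13.9 (SD, n = 4) in the ileum at that age. The P6 ileum was thus the group in which the transcripts of the pair were closest in level.

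Stard4, a soluble carrier that moves cholesterol between membranes and is a known SREBP-2 target, measured 73.6, 59.8, 72.2 and 60.2 CPM in the P6 jejunum against 254, 217, 249.9 and 309 in the P6 ileum. The lowest ileal library was far above the highest jejunal one (3.87-fold; log2 change -1.95 ± 0.17, adjusted p = 5.75e-07). Its P36 values were 208, 210.0, 182 and 182 CPM in the jejunum and 291, 179.9, 185 and 230.2 in the ileum. These values overlapped and were not called apart (log2 change -0.18 ± 0.16, adjusted p = 0.515; 95% interval -0.52 to 0.16).

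Each exporter was called higher in the jejunum at P6, at P36 or at both ages. Abcg5 and Abcg8 form the apical sterol pump, and their genes lie head to head on chromosome 17. Between the starts used here lie 109 bases (chr17:84683012-84683120, GRCm38.p6), shown on the strand of Abcg8, that hold none of the 3 motifs. Abcg8 has a further annotated start upstream, at base 84676302, so the stretch lies within its annotated span. The 2 NF-Y boxes of Abcg8 lie farther from its start than this stretch, at -175 to -171 and -114 to -110.
Abcg5 to Abcg8: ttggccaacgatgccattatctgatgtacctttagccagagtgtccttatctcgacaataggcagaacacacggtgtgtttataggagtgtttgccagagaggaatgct
Abcg5 measured 285 ± 50.3 CPM in the P6 jejunum against 139 ± 15.2 in the P6 ileum (SD, n = 4; log2 change 1.03 ± 0.22, adjusted p = 0.00267), and the jejunum was also higher at P36 (log2 change 0.96 ± 0.22, adjusted p = 0.00731). Its groups did not overlap at either age. Abcg8 was higher in the P6 jejunum (log2 change 0.84 ± 0.28, adjusted p = 0.0396), a call held in 9 of the 16 fits without 1 library (adjusted p 0.0128 to 0.086 over them). At P36 it was not called (log2 change 0.73 ± 0.28, adjusted p = 0.0962), but passed with the mouse as a block (adjusted p = 0.0441) and without P36 ileum library 1 (adjusted p = 0.007) or P6 ileum library 4 (adjusted p = 0.0443). In all 4 mice of each age both genes were higher in the jejunum.

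Abca1, the pump that loads apolipoprotein A-I at the basolateral side, was low in both regions at P6, with 6.24, 9.46, 8.24 and 5.36 CPM in the jejunum and 4.69, 8.70, 5.42 and 5.15 in the ileum. These values overlapped (log2 change 0.29 ± 0.44, adjusted p = 0.67; 95% interval -0.64 to 1.22). At P36 it measured 119.9, 109, 110.3 and 144 CPM in the jejunum and 39.5, 9.53, 6.00 and 12.2 in the ileum, where library 1 was the highest. The jejunum was 7.20-fold higher (log2 change 2.85 ± 0.45, adjusted p = 0.000384), and more so without that library (log2 change 3.72, adjusted p = 1.02e-06).

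Between the ages 14 of the 18 synthesis enzymes rose in the jejunum and 10 in the ileum. These contrasts use the same libraries as the regional ones. In the jejunum 18 of the 30 genes were called higher at P36 and 2 lower, where 24.7% and 26.9% of all genes were called in these directions. In the ileum 14 of the 30 were called higher at P36 and 2 lower, against 25.5% and 30.1% of all genes, and Acat2 was the enzyme that fell. The median log2 fold change of the 18 enzymes, P36 over P6, was 1.44 in the jejunum and 0.97 in the ileum, against -0.01 and -0.03 over all genes. With the further minimum of 2 on the absolute log2 fold change, 6 of the 30 remained in the jejunum and 4 in the ileum, where 16.4% of all genes did so in each region. The age groups also differed in marker lists. The Paneth list (2 genes) summed to 9.19 to 30.9 CPM in the P6 libraries and to 2963 to 10570 at P36, and the goblet list (4 genes) to 1626 to 3915 and 7188 to 17070. The tuft list (3 genes) summed to 0.349 to 2.84 CPM at P6 and 6.73 to 15.8 at P36, the proliferating and stem list (7 genes) to 394 to 809 and 815 to 1716, and the epithelial list to 4610 to 10640 and 11250 to 22940. Within the epithelial list Cdh1 reached at most 868 CPM at P6 and 1064 at P36, Krt20 117 and 2959, and Fabp2 6002 and 10190. The genes of the proliferating and stem list did not move together. Mki67 reached at most 155 CPM at P6 and 383 at P36. The stem cell marker Lgr5 lay at 15.2 to 44.2 CPM at P6, and at P36 it reached down to 3.25 CPM and did not exceed its P6 maximum. The macrophage and dendritic list (7 genes) had the higher sum at P6, 171 to 514 CPM against 28.7 to 76.0 at P36, but its genes did not move together. Csf1r made up most of its P6 sum, at 152 to 498 CPM against 0.608 to 3.55 at P36, while Itgam lay at 0.916 to 4.86 CPM at P6 and at 18.3 to 51.5 at P36, and C1qa was at most 4.39 CPM in any library. The part of these cells in the differences with age was not tested.

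**Figure D4:**
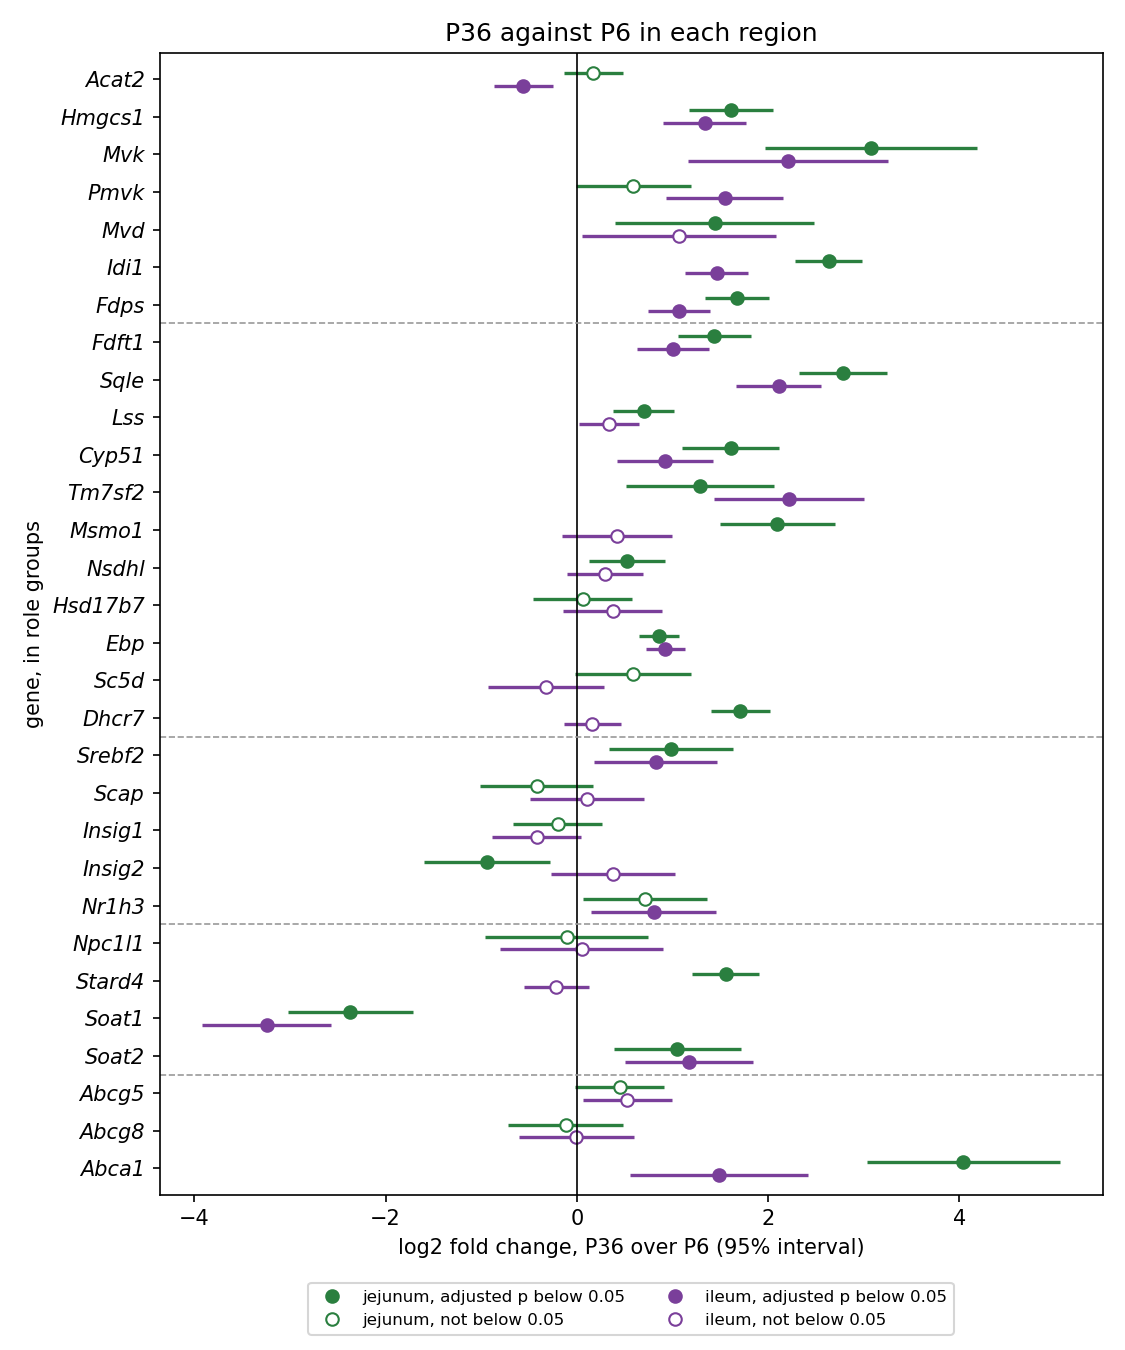
Log2 fold change of P36 over P6 for each gene in the jejunum (green) and ileum (purple), with 95% intervals; filled points have an adjusted p below 0.05 and points right of 0 are higher at P36. Abca1 in the jejunum (4.04) and Soat1 in the ileum (-3.24) mark the extremes.

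Of the mevalonate segment, Idi1 had the smallest adjusted p with age. It rose 6.21-fold in the jejunum (log2 change 2.63 ± 0.17, adjusted p = 2.48e-09) and 2.75-fold in the ileum (log2 change 1.46 ± 0.16, adjusted p = 1.05e-06), and no P36 value overlapped a P6 value of its region. Mvk rose from 2.79 ± 0.423 to 23.6 ± 3.04 CPM in the jejunum (SD, n = 4; log2 change 3.08 ± 0.52, adjusted p = 0.000131) and also rose in the ileum (log2 change 2.21 ± 0.49, adjusted p = 0.00131; without P6 ileum library 4, log2 change 1.82, adjusted p = 1.66e-07). Hmgcs1 rose in the jejunum (log2 change 1.61 ± 0.21, adjusted p = 7.39e-06) and in the ileum (log2 change 1.34 ± 0.20, adjusted p = 4.52e-05), as did Fdps (adjusted p = 2.16e-07 and 2.24e-05). Acat2 departed from this pattern, with no call in the jejunum (log2 change 0.17 ± 0.14, adjusted p = 0.341) and a fall in the ileum (log2 change -0.56 ± 0.14, adjusted p = 0.00372). Pmvk rose in the ileum alone by this test (log2 change 1.55 ± 0.29, adjusted p = 0.000287; jejunum adjusted p = 0.0946, and 0.00699 without P6 ileum library 4). Mvd was called in the jejunum (log2 change 1.44 ± 0.49, adjusted p = 0.0214), a call lost without P6 jejunum library 1 or 3 (adjusted p up to 0.0518). It was not called in the ileum (adjusted p = 0.0697), but was without P6 ileum library 4 (adjusted p = 0.00441) or library 2 (adjusted p = 0.048).

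Of the squalene and sterol segment, Sqle had the smallest adjusted p, rising 6.87-fold in the jejunum (log2 change 2.78 ± 0.22, adjusted p = 3e-08) and 4.32-fold in the ileum (log2 change 2.11 ± 0.21, adjusted p = 4.78e-07). Tm7sf2 rose in both regions (1.29 ± 0.36 and 2.22 ± 0.37 on the log2 scale), as did Fdft1, Cyp51 and Ebp. Msmo1 rose in the jejunum (log2 change 2.10 ± 0.28, adjusted p = 1.34e-05) and was not called in the ileum (log2 change 0.42 ± 0.27, adjusted p = 0.199), though it was without P6 ileum library 4 (log2 change 0.80, adjusted p = 0.00481). Dhcr7 likewise rose in the jejunum (log2 change 1.71 ± 0.14, adjusted p = 7.83e-08), with no call in the ileum (log2 change 0.16 ± 0.14, adjusted p = 0.343; 95% interval -0.14 to 0.46). Lss and Nsdhl rose in the jejunum (adjusted p = 0.00104 and 0.0281) and were not called in the ileum (adjusted p = 0.0676 and 0.191). The jejunal call of Nsdhl held in 12 of the 16 fits without 1 library (adjusted p 0.00632 to 0.0953 over them). Nsdhl was called in the ileum without P6 ileum library 4 (adjusted p = 0.0147) and Lss without P36 ileum library 3 (adjusted p = 0.0227). Hsd17b7 and Sc5d were called in neither region. Sc5d was called in the jejunum, higher at P36, without P6 ileum library 4 (log2 change 0.59, adjusted p = 0.0437) or P36 ileum library 1 (adjusted p = 0.0496), and in the ileum without P36 ileum library 1 (log2 change -0.65, adjusted p = 0.0446).

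Srebf2 had the smallest adjusted p with age among the sensing genes, in the jejunum (log2 change 0.99 ± 0.30, adjusted p = 0.0129), where the P6 and P36 libraries did not overlap. It also rose in the ileum (log2 change 0.82 ± 0.30, adjusted p = 0.0302), but not without P36 ileum library 1 (adjusted p = 0.061) or library 4 (adjusted p = 0.0664). Insig2 fell in the jejunum (log2 change -0.94 ± 0.31, adjusted p = 0.0185), a call lost without P36 jejunum library 3 (adjusted p = 0.0727) or P6 jejunum library 1 (adjusted p = 0.0723). Nr1h3 rose in the ileum (log2 change 0.81 ± 0.31, adjusted p = 0.0362), a call lost without P36 ileum library 1 (adjusted p = 0.0896) or library 4 (adjusted p = 0.0576). In the jejunum Nr1h3 was called without P6 ileum library 4 (log2 change 0.71, adjusted p = 5.35e-05). Insig1 and Scap were not called with age in either region, but Scap was in the jejunum without P6 ileum library 4 (log2 change -0.42, adjusted p = 0.000523) and Insig1 in the ileum without P36 ileum library 1 (log2 change -0.60, adjusted p = 0.0319).

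Among the handling genes the acyltransferases changed in opposite directions with age. Soat1 measured 19.1, 14.4, 17.2 and 13.9 CPM in the P36 jejunum against 14.8, 16.8, 21.0 and 18.7 in the P36 ileum, below all P6 values of its region. It fell 5.17-fold in the jejunum (log2 change -2.37 ± 0.31, adjusted p = 8.47e-06) and 9.46-fold in the ileum (log2 change -3.24 ± 0.32, adjusted p = 3.95e-07; without P6 ileum library 4, log2 change -2.81, adjusted p = 5.58e-08). Soat2 rose in the jejunum (log2 change 1.05 ± 0.31, adjusted p = 0.0103) and in the ileum (log2 change 1.17 ± 0.31, adjusted p = 0.00495). Stard4 rose in the jejunum (log2 change 1.56 ± 0.16, adjusted p = 9.04e-07) and was not called in the ileum (log2 change -0.22 ± 0.16, adjusted p = 0.264), where it was without P36 ileum library 1 (log2 change -0.37, adjusted p = 0.0424). Npc1l1 was called in neither region, with 95% intervals of -0.96 to 0.75 in the jejunum and -0.80 to 0.90 in the ileum. Abca1 rose 16.5-fold in the jejunum (log2 change 4.04 ± 0.47, adjusted p = 2.93e-06), the largest change with age among the 30. In the ileum it rose 2.79-fold (log2 change 1.48 ± 0.44, adjusted p = 0.00924), and without P36 ileum library 1 this was not called (log2 change 0.62, adjusted p = 0.0627). Abcg5 and Abcg8 were not called with age in either region. In the ileum Abcg5 narrowly missed the threshold (log2 change 0.53 ± 0.22, adjusted p = 0.0521). It was called there without P36 ileum library 3 (log2 change 0.71, adjusted p = 0.00672). The same held without P36 ileum library 2, P36 jejunum library 3 or P6 jejunum library 3. In the jejunum Abcg5 was called without P36 ileum library 3 (adjusted p = 0.0488) or library 1 (adjusted p = 0.0432).

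Whether the regional difference itself changed between the ages was tested as the interaction, the regional log2 fold change at P6 minus that at P36. It was called for 6 of the 30 genes, against 8.69% of all genes tested. In 5 of them, Acat2, Idi1, Msmo1, Dhcr7 and Stard4, the excess of the ileum was larger at P6. The differences were -0.73 ± 0.20 for Acat2 (SE, adjusted p = 0.0354), -1.17 ± 0.22 for Idi1 (adjusted p = 0.00315) and -1.68 ± 0.39 for Msmo1 (adjusted p = 0.0128). They were -1.54 ± 0.20 for Dhcr7 (adjusted p = 0.000176) and -1.77 ± 0.23 for Stard4 (adjusted p = 0.000163). Dhcr7 and Stard4 share a course in the group means: both were low in the P6 jejunum alone and stood within 71.3 to 97.4 CPM (Dhcr7) and 196 to 257 CPM (Stard4) in the other 3 groups. For Abca1 the interaction went with the jejunal excess at P36 (-2.56 ± 0.61, adjusted p = 0.0159). The call of Acat2 held in 7 of the 16 fits without 1 library (adjusted p 0.0127 to 0.0811 over them).

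**Figure D5:**
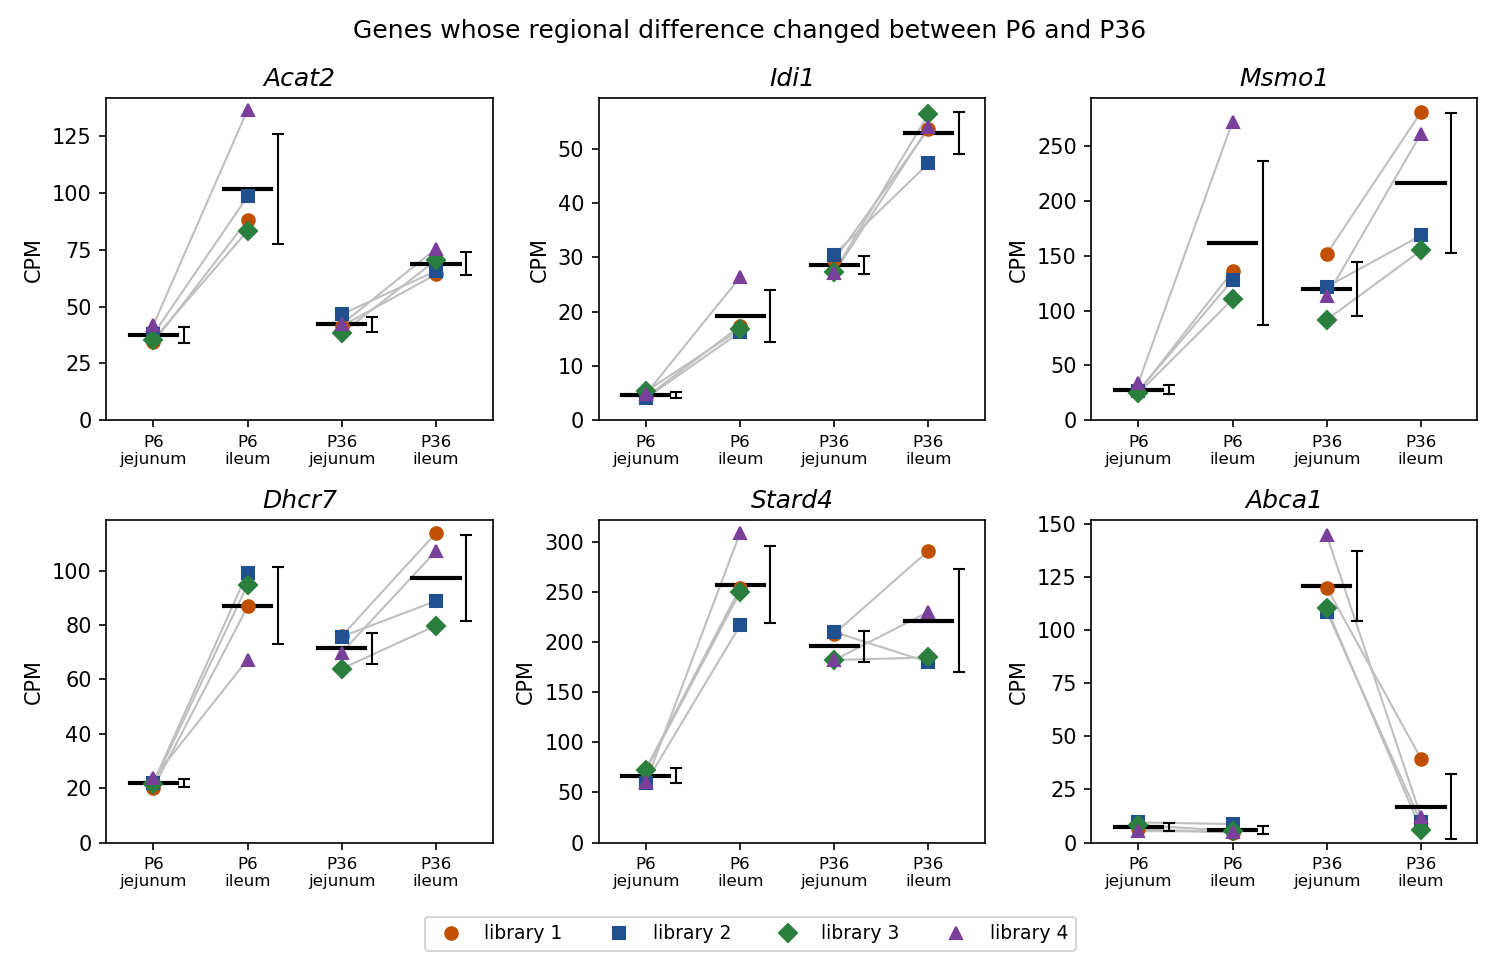
CPM in each library for the 6 genes with a called interaction, with grey lines joining the regions of a mouse, bars for the group mean and whiskers for 1 SD (n = 4). Dhcr7 is at 21.9 CPM in the P6 jejunum against 87.0 in the P6 ileum, and the P36 groups, at 71.3 and 97.4, lie closer together.

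The interaction was not called for Hmgcs1, Fdps, Fdft1, Sqle, Lss or Cyp51, whose differences at P6 and P36 had intervals that allow a change (Sqle -1.28 to -0.06; Hmgcs1 -0.88 to 0.33). Without P6 ileum library 4 it was also called for Mvk (log2 change -1.26, adjusted p = 0.00133) and Srebf2 (log2 change -0.46, adjusted p = 0.0494), without P36 ileum library 1 for Sc5d (log2 change -1.24, adjusted p = 0.036) and without P36 ileum library 3 for Insig2 (log2 change 1.52, adjusted p = 0.0334). With the mouse as a block it was called for Sc5d (log2 change -0.94, adjusted p = 0.042) and Insig2 (log2 change 1.19, adjusted p = 0.0218) besides the 6. The sign of Insig2 was the opposite of theirs, its ileal level being relatively higher at P36.

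Outside the 30, 36 genes of neighbouring pathways were counted. In the regional contrasts at P6 5 were called for the jejunum and 6 for the ileum, and at P36 4 and 2, shares close to those of all genes (11.1% and 14.8% at P6, 8.3% and 7.8% at P36). The 9 genes of the isoprenoid branch, which shares farnesyl diphosphate with sterol synthesis, had small regional log2 fold changes, between -0.37 and 0.14 at P6 and between -0.41 and 0.21 at P36. At P6 the genes past the larger minimum were Sec24d, a coat subunit for export of the Scap complex from the endoplasmic reticulum, higher in the jejunum (2.80, adjusted p = 3.17e-09), and the LXR targets Abcg1 (-2.97, adjusted p = 0.000284) and Mylip (-2.49, adjusted p = 1.82e-05), higher in the ileum. A further LXR target, Lpcat3, was higher in the jejunum (1.12, adjusted p = 0.00112), so the LXR targets had no common direction.

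With age, 9 of the 36 were called higher and 12 lower at P36 in the jejunum, and 6 higher and 11 lower in the ileum, which is near the shares of all genes (24.7% and 26.9% in the jejunum, 25.5% and 30.1% in the ileum). In both regions the lysosomal acid lipase Lipa (-3.81 in the jejunum, -3.23 in the ileum), the sterol carrier Stard5 (-3.13 and -3.52) and the oxysterol-binding protein Osbpl1a (-2.33 and -2.69) were lower at P36 by more than the larger minimum on the log2 scale. Pdss1, which begins the ubiquinone side chain, was higher at P36 in both (2.12 and 2.05). In the ileum Abcg1 (-3.77), Npc2 (-2.30), the partner that hands sterol out of lysosomes, and Gramd1b (-2.05), a carrier at the plasma membrane, were lower at P36 as well. The adjusted p of these genes ran up to 0.00193 for Gramd1b.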

How the data were processed

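By the study's methods, stranded libraries of mRNA (Kapa) were prepared and sequenced by Medgenome. Adapters were removed with Trimmomatic 0.38, STAR placed the reads on mm10, and featureCounts of Subread 1.6.3 assigned them to genes on the reverse strand (the submitters' notes give STAR 2.5.3, and the paper names another version). The deposited values are raw counts per gene, 1 file per library, and coordinates are those of mm10. The 30 genes and all lists were chosen with earlier results of these data known.

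The counts of all 16 libraries entered 1 fit in edgeR 4.0.16 (R 4.3.3): TMM factors, filterByExpr on the 4 groups, 4 group means, no block, and the quasi-likelihood F test with Benjamini-Hochberg adjustment over the 13429 genes tested. Contrasts were region at each age, age in each region, and their interaction. The SE is the log2 fold change divided by the square root of F. Totals ran from 12159237 to 21776158 in the P36 ileum, the shallowest group, and from 20362781 to 25947276 in the P6 jejunum, the deepest, and the 30 genes had at least 16 counts in every library. Replicates were not copies (chi-square per gene 14.0 to 292).

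Genes called between regions with an absolute log2 fold change above 1, or with a called interaction, are given per library, up to 12 by adjusted p, as is the gene of smallest adjusted p with age in each role group. Soat2, Npc1l1, Insig2, Mvk and Mvd are given per library by a choice made after their values were seen. Same-numbered libraries are the same mouse by the labels: their deviations from the group means correlated at 0.391, 0.383, 0.336 and 0.157 at P6 and at 0.288, 0.337, 0.347 and 0.240 at P36. For pairs from different mice the values ran from -0.284 to 0.12 at P6 and from -0.367 to 0.232 at P36. The mice within a group are separate animals. The spread between them also holds differences of preparation and library, such as those of P6 ileum libraries 2 and 4. At P6 the mice of libraries 1 and 3 share the label stem L41800 and those of libraries 2 and 4 the stem L42150. The meaning of these stems is not given.

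Alternatives were DESeq2 1.42.0, median-of-ratios scaling, library totals, no filter, a mean CPM of at least 1, only the 8 libraries compared, sex, a robust prior, the mouse as a block, the study's fold minimum of 2 on the log2 scale, and each library left out. Corrections for GC content (loess span 0.3) and left-out pairs of libraries were added after seeing the data. Tested on simulated counts, the fit recovered most large changes and fewer small ones, with the right sign. Promoters came from RefSeq windows. Results for some genes are not reported here.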

Additional observations from a re-analysis of the deposited data

Results flagged for a closer look

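In 11 of 120 sets of 4 libraries (30 genes in 4 groups), the highest or lowest library stood apart from the other 3 by Dixon's criterion, which chance meets in about 1 of 20 sets. P6 ileum library 4 accounted for 7 of them. It was high for Cyp51 (205 CPM), Msmo1 (272 CPM) and Sc5d (207 CPM) and low for Srebf2 (41.5 CPM) and Scap (15.6 CPM). It also stood apart for Idi1 (26.3 CPM) and Npc1l1 (554 CPM). P6 ileum library 2 stood apart for Fdps (115.9 CPM). In the P6 jejunum, library 4 stood apart for Hmgcs1 (93.9 CPM) and Scap (53.2 CPM), and library 3 for Insig1 (66.95 CPM).

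The regional log2 fold change at P6 minus that at P36 passed the test of the interaction for Acat2 (-0.73), Idi1 (-1.17), Msmo1 (-1.68), Dhcr7 (-1.54), Stard4 (-1.77) and Abca1 (-2.56). Their levels and errors are given above.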

How the results depend on the processing

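No call reversed under any alternative. Calls kept in every fit made for a comparison, the fits without 1 library included and the fold minimum left aside, numbered 14 of 19 between regions at P6, 12 of 17 at P36, 17 of 20 with age in the jejunum, 13 of 16 with age in the ileum and 5 of 6 for the interaction. With the study's minimum of 2 on the log2 scale in edgeR, at P6 0 genes were called for the jejunum and 3 for the ileum (3 and 16 without it), and 1 and 0 at P36 (3 and 14). With age they numbered 5 higher and 1 lower in the jejunum (18 and 2) and 3 and 1 in the ileum (14 and 2), and 1 remained for the interaction (6). Genes higher in the jejunum at P6 numbered 6 after the GC correction, 6 with the GC correction and the mouse as a block, and 5 without P6 ileum library 4 and P36 ileum library 1 together. At P36 they numbered 5 with the mouse as a block, 5 with the GC correction, 6 with both, 5 without P6 ileum libraries 2 and 4, 5 without P36 ileum libraries 1 and 3, and 7 without P6 ileum library 4 and P36 ileum library 1. Without P36 ileum libraries 1 and 3, 9 genes were higher in the P36 ileum. The interaction was called for 14 genes with the GC correction and the block and for 12 without P6 ileum library 4 and P36 ileum library 1. The GC correction alone lost no call. It gained Scap, Insig1, Nr1h3 and Npc1l1 between regions at P6, and Mvd, Hsd17b7, Srebf2, Scap, Nr1h3 and Abcg8 at P36. With age it gained Pmvk, Scap and Nr1h3 in the jejunum and Mvd, Scap and Abcg5 in the ileum, and for the interaction Pmvk, Fdps and Scap. Beyond the genes named beside the results, the block changed no call. Leaving out 1 library each gave 2 to 4 genes for the jejunum and 14 to 18 for the ileum at P6, and 3 to 5 and 9 to 19 at P36. It gave 17 to 21 higher and 1 to 3 lower with age in the jejunum, 11 to 17 and 2 to 5 in the ileum, and 5 to 8 for the interaction; the 1 lower in the jejunum came without P36 jejunum library 3 or P6 jejunum library 1, and the 5 lower in the ileum without P36 ileum library 1. The 9 in the P36 ileum came without P36 jejunum library 3, the 19 without P6 ileum library 4, and the 5 in the P36 jejunum without P36 ileum library 1 or P6 ileum library 4. Apart from smaller gene or library sets and the fold minimum, the cause was not tested. Scaling by library totals moved the median of all genes by -0.285 on the log2 scale between regions at P6, by -0.138 at P36 and by -0.149 for the interaction. With 4 mice a group, an uncalled difference may be as large as its interval allows.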
